A study of Mus musculus with 13 samples.

Results

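The genes examined encode ribosome assembly factors, the proteins that make ribosomes but are not part of the finished particle. The list names 51 genes of nucleolar rRNA synthesis, rRNA processing and ribosome assembly, and each of the 51 was found among the 40787 genes of the count table. The rule names genes by function and applies no threshold to measured values, but the list was drawn up with earlier results of these data known. The members were sorted into 6 roles: 2 nucleolar phosphoproteins, 8 genes of RNA polymerase I and its cofactors, 3 of the box C/D snoRNP, 4 of the box H/ACA snoRNP, 16 factors of the small subunit and 18 of the large subunit.

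Ribosomes are built mainly in the nucleolus. RNA polymerase I transcribes the long rRNA precursor there, small nucleolar ribonucleoproteins (snoRNPs) modify and help to cleave it, and a succession of assembly factors folds it onto ribosomal proteins to give the small and the large subunit. Growth signalling through mTORC1, the kinase complex that contains raptor, is known to promote several of these steps, including transcription by RNA polymerase I and translation of ribosomal protein mRNAs. Schwann cells (SCs), the myelinating glia of peripheral nerves, leave the myelinating state and re-enter the cell cycle after nerve injury.

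RNA was sequenced from sciatic nerve tissue of C57BL/6 mice, without sorting of cells. Every mouse was homozygous for a floxed allele of Rptor, the gene of raptor, and received tamoxifen when 2 months old. RaptorKO mice also carried a tamoxifen-inducible Cre for deletion in SCs, so the other cell types of the nerve were not targeted. Control mice carried no Cre. One sciatic nerve was crushed 2 months after the last tamoxifen injection, and at 5 d post crush (dpc) the distal stump of that nerve (injured) and the uninjured nerve of the other side (contralateral) were taken, and the epineurium was removed. The groups were control contralateral (n = 3), RaptorKO contralateral (n = 4), control injured (n = 3) and RaptorKO injured (n = 3). Libraries of a group came from separate mice, and whether a contralateral and an injured library of the same number came from the same mouse is not stated.

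Library totals ranged from 8200458 to 13581775 estimated counts. Levels are given as CPM, a gene's count set to a common library total after TMM normalization over the 13 libraries. Rptor, the deleted gene, was at 43.6 to 52.2 CPM in control contralateral and 22.1 to 27.8 CPM in RaptorKO contralateral libraries, a log2 fold change of -0.998 (SE 0.12, edgeR adjusted p = 0.0005). In injured nerves it was at 34.98 to 49.5 CPM in controls and 23.3 to 28.8 CPM in RaptorKO (-0.68, SE 0.15, edgeR adjusted p = 0.0167), and the genotypes did not overlap on either side. All 8 SC markers examined were detected in every group. The libraries control contralateral 3 and control injured 3 stood apart, with 15017 and 14462 Xist counts against 4 to 17 in the other 11 libraries, and with 10 and 20 counts of Y-linked genes against 1456 to 2338. The study used mice of either sex, and the labels give no sex. Both of these libraries are controls, so this difference was not balanced between the genotypes. Among the members, Dkc1, Utp14a and Gnl3l are X-linked.

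The summed level of the 51 members was lowest in control contralateral and highest in RaptorKO injured nerves, without overlap with the other groups. It was 2087 ± 36.6 CPM (SD, n = 3) in control contralateral, 2612 ± 86.4 CPM (n = 4) in RaptorKO contralateral, 2792 ± 115 CPM (n = 3) in control injured and 3739 ± 112 CPM (n = 3) in RaptorKO injured nerves. In nerve tissue, fewer cells of a type and less RNA per cell cannot be told apart. Without Npm1 and Ncl, the sum of the other 49 members followed the same order of means, at 1653, 1861, 1912 and 2292 CPM. The ranges of that sum were 1615 to 1675 CPM in control contralateral, 1751 to 1945 CPM in RaptorKO contralateral, 1878 to 1960.1 CPM in control injured and 2247 to 2348 CPM in RaptorKO injured libraries, so RaptorKO contralateral and control injured overlapped. Taken singly, 40 of the 51 members had their highest mean level in RaptorKO injured nerves, and 35 had their lowest in control contralateral nerves. The same counts were not taken over all genes, so they cannot be read as particular to the members.

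Per kilobase of exon, the most abundant members were Sbds, Npm1 and Rrp1 in control contralateral nerves, at means of 126, 75.04 and 64.6 CPM per kb. With the median transcript length in place of the union of exons the same 3 genes led, with Npm1 ahead of Sbds. In RaptorKO injured nerves the order under both lengths was Npm1 (310.1 CPM per kb), Ncl (99.6), Rrp1 (79.3), Nsa2 (72.8) and Sbds (49.8). Rrp12 (1.297 CPM per kb) and Polr1e (0.927) were the scarcest members in control contralateral nerves under both lengths. Libraries of a group varied little for most members. The median coefficient of variation over the 51 genes lay between 8.9% in RaptorKO injured and 11.2% in control injured nerves.

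**Figure D1:**
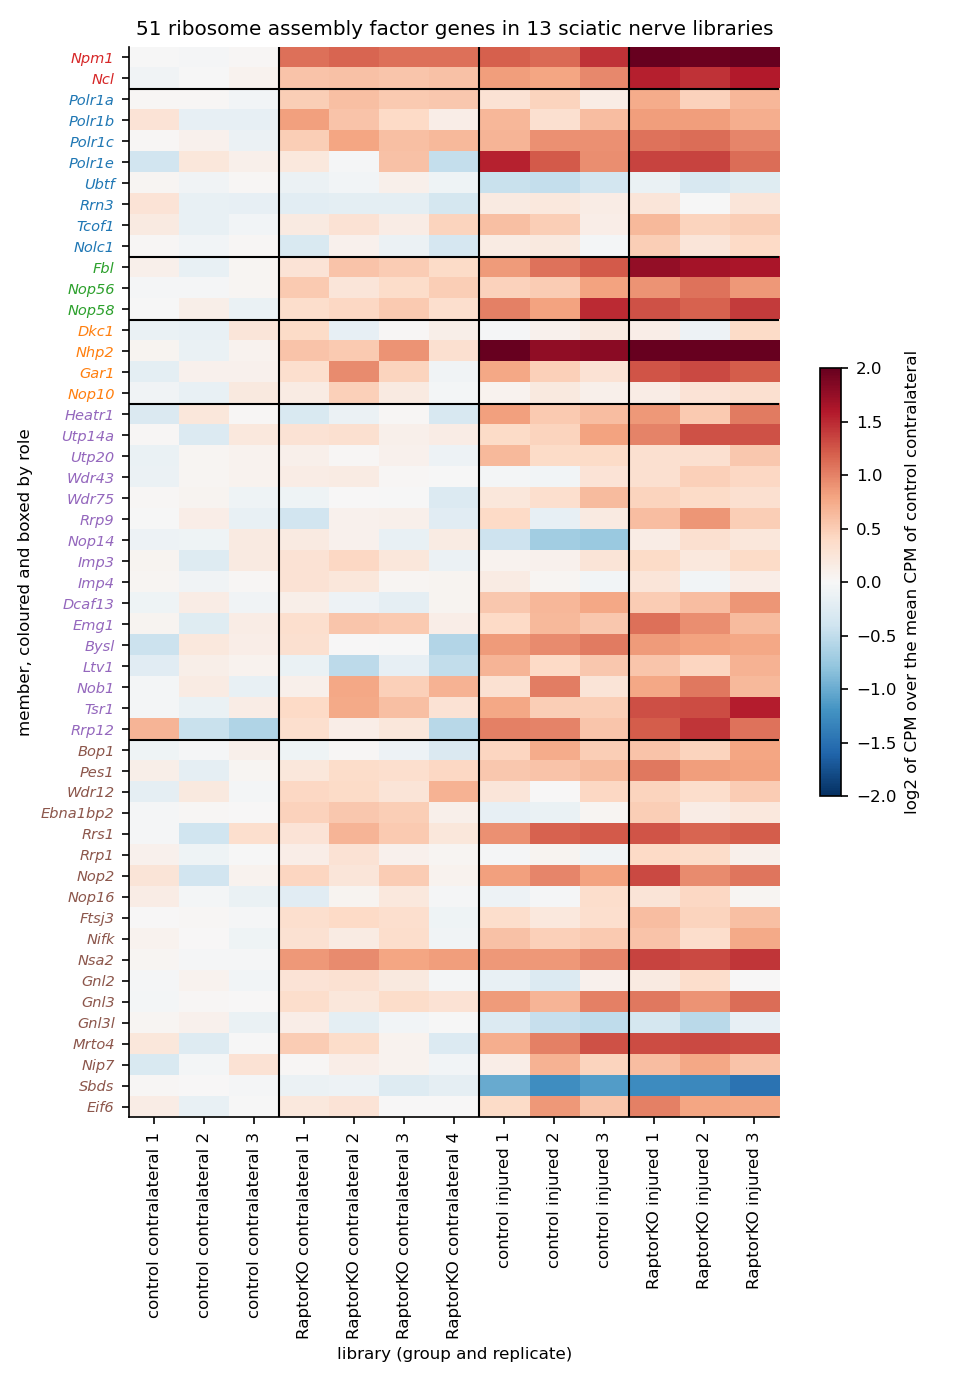
Heat map of the log2 ratio of each member's CPM in each of the 13 libraries (columns, by group) to its mean in control contralateral nerves, with the 51 members as rows boxed by role; the colour scale ends at -2 and 2. Npm1, Ncl and Nsa2 were raised in each RaptorKO contralateral library, Nhp2 was raised in each injured library, and Sbds was lowered in each injured library.

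The first comparison asks which members differ between RaptorKO and control nerves that were not injured. In contralateral nerves, 10 of 50 tested members were higher in RaptorKO, against 4.49% of all 11878 tested genes, and 0 were lower, against 5.68% of all genes. Npm1 (log2 fold change 1.14), Nsa2 (0.89), Polr1c (0.66), Ncl (0.60), Polr1a (0.56), Tsr1 (0.55), Fbl (0.46), Ebna1bp2 (0.44), Nop56 (0.43) and Nop58 (0.43) passed the test, which was edgeR's quasi-likelihood test with an adjusted p under 0.05 over all tested genes and a fold change above 1.2. At an unadjusted p under 0.05, 21 members were higher and 0 lower, where 1432 and 1523 of the 11878 tested genes were. DESeq2 called 12 higher and the edgeR exact test 11, and both called 0 lower. Polr1e had too few counts to be tested here, and 49 members reached the minimum of 50 counts in every library of the comparison.

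The median log2 fold change of the 50 members was 0.23, with 38 above 0, beside 0.012 over all tested genes. In 15 of the 50, every RaptorKO library lay above every control library, which held for 9.51% of all tested genes. The genotypes were also separate for 2 members, Rrn3 and Sbds, with RaptorKO lower, though neither was called. Rrn3 was at 29.5 to 32.7 CPM in RaptorKO and 33.3 to 45.2 CPM in control contralateral libraries. Sbds was at 163 to 182 and 191 to 197 CPM. Separation with RaptorKO lower was not counted over all tested genes. The count of 10 depended on single libraries. Leaving out any 1 of the 3 control libraries left 4 calls. Leaving out RaptorKO contralateral 2 left 5, and leaving out RaptorKO contralateral 3 left 6. Npm1, Ncl, Nsa2 and Polr1a passed under every alternative run.

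Markers of the cells in the nerve also differed between the groups compared, and their part in the members' differences was not tested. In RaptorKO contralateral nerves, 0 of 8 SC markers were higher and 5 lower (median log2 fold change -0.63), 7 of 10 macrophage markers were higher (median 0.84), and so were 2 of 5 mast cell, 3 of 8 fibroblast and perineurial, 1 of 7 pericyte and smooth muscle and 1 of 5 proliferation markers (medians 2.097, 0.62, 0.30 and 0.22). None of 8 endothelial, 5 adipocyte or 1 skeletal muscle markers passed (medians 0.0083, 1.08 and 0.77), with 0 at an unadjusted p under 0.05 and 0 by DESeq2 and the exact test. The summed level of SC markers was 60450.4 to 66877 CPM in control and 51917 to 63418 CPM in RaptorKO contralateral libraries, and that of macrophage markers was 211 to 234 and 344 to 417 CPM.

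After crush, 9 of 51 members (17.6%) were higher in RaptorKO than in control nerves, against 4.09% of all 12040 tested genes, and 0 were lower, against 4.44%. They were Nop14 (0.87), Tsr1 (0.82), Npm1 (0.80), Gar1 (0.75), Ncl (0.69), Fbl (0.64), Utp14a (0.64), Nsa2 (0.48) and Nhp2 (0.48). At an unadjusted p under 0.05, 20 members were higher and 0 lower, where 1313 and 1281 of the 12040 tested genes were, and DESeq2 and the edgeR exact test each called 9 higher and 0 lower. The members' median was 0.26, with 47 of 51 above 0, beside 0.0014 over all tested genes. In 23 members every RaptorKO library lay above every control library, which held for 11.5% of all tested genes. For 1 member, Sbds, the genotypes were separate with RaptorKO lower, at 70.03 to 81.5 CPM against 82.1 to 96.2 CPM in controls. Without RaptorKO injured 1 the count of members called higher fell to 5, and without control injured 2 to 4. Nop14, Tsr1, Npm1 and Ncl passed under every alternative run.

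In injured nerves, RaptorKO had 4 of 8 SC markers (median -0.48) and 8 of 12 proliferation markers lower (median -0.80). It had 8 of 8 endothelial (median 0.90), 6 of 7 pericyte and smooth muscle (1.26), 5 of 6 mast cell (2.45) and 3 of 6 fibroblast and perineurial markers (0.65) higher. Of 12 macrophage markers (median 0.14), the 1 neutrophil and the 1 adipocyte marker tested (-0.016 and -0.86), 0 passed, with 0 at an unadjusted p under 0.05 and 0 by DESeq2 and the exact test. The summed level of proliferation markers was 1841 to 1999 CPM in control and 1125 to 1274 CPM in RaptorKO injured libraries, that of endothelial markers 267 to 406 and 499 to 788 CPM, that of SC markers 4061 to 4607 and 2776 to 3358 CPM and that of macrophage markers 3436 to 4364 and 2454 to 4877 CPM.

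The genotype comparisons before and after injury share no library, but they may share mice, so calls in both may not be independent. Fbl, Ncl, Npm1, Nsa2 and Tsr1 were higher in both, which is 5 of the 10 contralateral calls and 55.6% of the 9 injured calls. The same overlap was not counted over all called genes. Ebna1bp2, Nop56, Nop58, Polr1a and Polr1c passed in contralateral nerves and not in injured ones, and Gar1, Nhp2, Nop14 and Utp14a passed in injured nerves and not in contralateral ones. Of these 9 genes, Nop14 was the only one whose genotype effects were found to differ when the difference itself was tested.

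**Figure D2:**
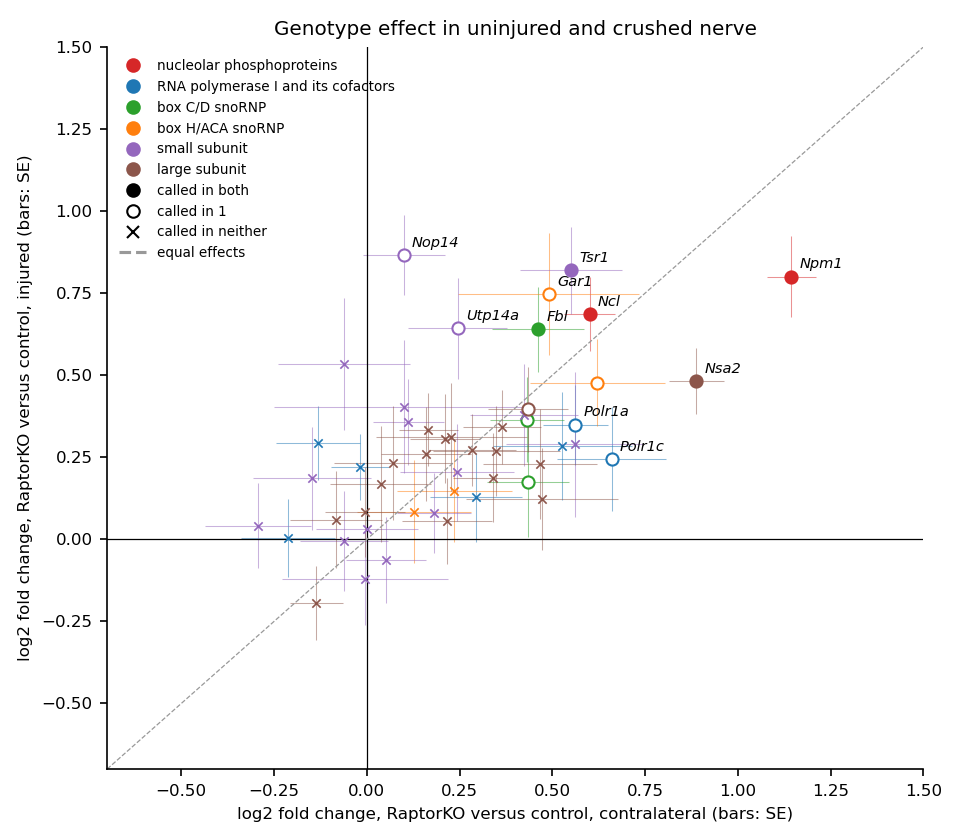
Log2 fold change of RaptorKO versus control in contralateral nerves (x axis) against that in injured nerves (y axis) for the 50 members tested in both, with bars of 1 SE, coloured by role; filled points were called in both comparisons, open points in 1 and crosses in neither. Npm1 and Nsa2 lay below the dashed line of equal effects and Nop14 lay above it, at 0.099 and 0.87.

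The second question is how crush changed the same genes. In control mice, 28 of 51 members (54.9%) were higher in injured than in contralateral nerves, against 32.4% of all 12430 tested genes, and 4 (7.84%) were lower, against 32.9%. Nhp2 (1.86), Npm1 (1.22), Polr1e (1.197), Nop58 (1.08) and Rrs1 (1.07) rose most. Sbds (-1.17), Nop14 (-0.65), Ubtf (-0.48) and Gnl3l (-0.46) fell. The median of the members was 0.49, and 44 of 51 lay above 0, where 49.9% of all tested genes did. With both control libraries numbered 3 left out, 26 members were higher and 4 lower. Polr1e had too few counts in contralateral nerves to pass the filter without the injured libraries, so it could enter the comparison only with high injured counts.

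In RaptorKO mice, 32 of 51 members (62.7%) were higher in injured than in contralateral nerves, against 30.5% of all 12515 tested genes, and 2 (3.92%) were lower, against 28.5%. Nhp2 (1.74), Fbl (1.22), Rrp12 (1.14), Polr1e (1.12) and Mrto4 (1.08) rose most, and Sbds (-1.1995) and Gnl3l (-0.34) fell. In RaptorKO, too, Polr1e reached the minimum in only 1 contralateral library, so its entry into this comparison needed the injured ones. The median of the members was 0.48. Of the members higher after injury, 25 were so in both genotypes, which is 89.3% of the 28 in controls and 78.1% of the 32 in RaptorKO. No such overlap was counted over all called genes. Nifk, Polr1b and Tcof1 passed in controls and not in RaptorKO, and Gar1, Nip7, Nolc1, Rrn3, Rrp9, Wdr43 and Wdr75 passed in RaptorKO and not in controls. None of these 10 differed between the genotypes when the difference was tested (lowest edgeR adjusted p = 0.22, for Nolc1). With the libraries scaled to their totals alone, the median of all tested genes moved from -0.0015 to 0.20 in controls and from 0.028 to 0.19 in RaptorKO, and the members' medians moved to 0.69 and 0.64. No called member changed sign.

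Crush changed the markers as well. The medians of the log2 fold change over each list are in parentheses. In controls, 12 of 12 macrophage (median 4.01), 12 of 12 proliferation and the 1 tested neutrophil marker, Retnlg, were higher, and 6 of 8 SC (-0.84), 4 of 8 endothelial (-0.43), 6 of 7 pericyte and smooth muscle (-0.66) and 1 of 1 skeletal muscle markers (-3.75) were lower. Retnlg was at 0 in every contralateral library of both genotypes, so it entered only through injured libraries and had to be higher. Some macrophage and proliferation markers had too few counts to be tested among contralateral libraries alone, so those also needed injured counts to enter. In RaptorKO, 12 of 12 macrophage (median 3.29) and 12 of 12 proliferation markers and Retnlg were higher, as were 4 of 8 endothelial (0.32) and 2 of 6 mast cell markers (0.42), and 5 of 8 SC markers were lower and 1 higher (-0.92). Of the pericyte and smooth muscle markers 1 was higher and 2 lower in RaptorKO (0.16), and of the endothelial markers 2 were also lower. The 1 skeletal muscle marker tested was lower (-4.11). The 6 listed skeletal muscle markers together were at 2.83 to 3.24 CPM in control injured and 1.97 to 2.68 CPM in RaptorKO injured libraries. Even these sums lie below the minimum of 50 counts. In both genotypes the marker tested therefore entered only through contralateral libraries and had to be lower after injury. The summed level of proliferation markers in contralateral nerves was 81.1 to 98.8 CPM in controls and 100.1 to 117 CPM in RaptorKO. In controls 0 of 5 mast cell markers passed (0.096). Fibroblast and perineurial markers had 1 of 8 higher and 6 lower in each genotype (-1.34 and -1.19). In both genotypes 0 adipocyte markers passed (-0.63 and -2.01). The mast cell list in controls and the adipocyte lists had 0 genes at an unadjusted p under 0.05 and 0 by DESeq2 and the exact test. T and NK cell markers had too few counts to be tested, with sums of 0.405 to 0.814, 1.22 to 1.61, 0.293 to 1.94 and 2.13 to 4.69 CPM in the 4 groups. The neutrophil markers Ly6g and Camp were at 0 in every library.

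**Figure D3:**
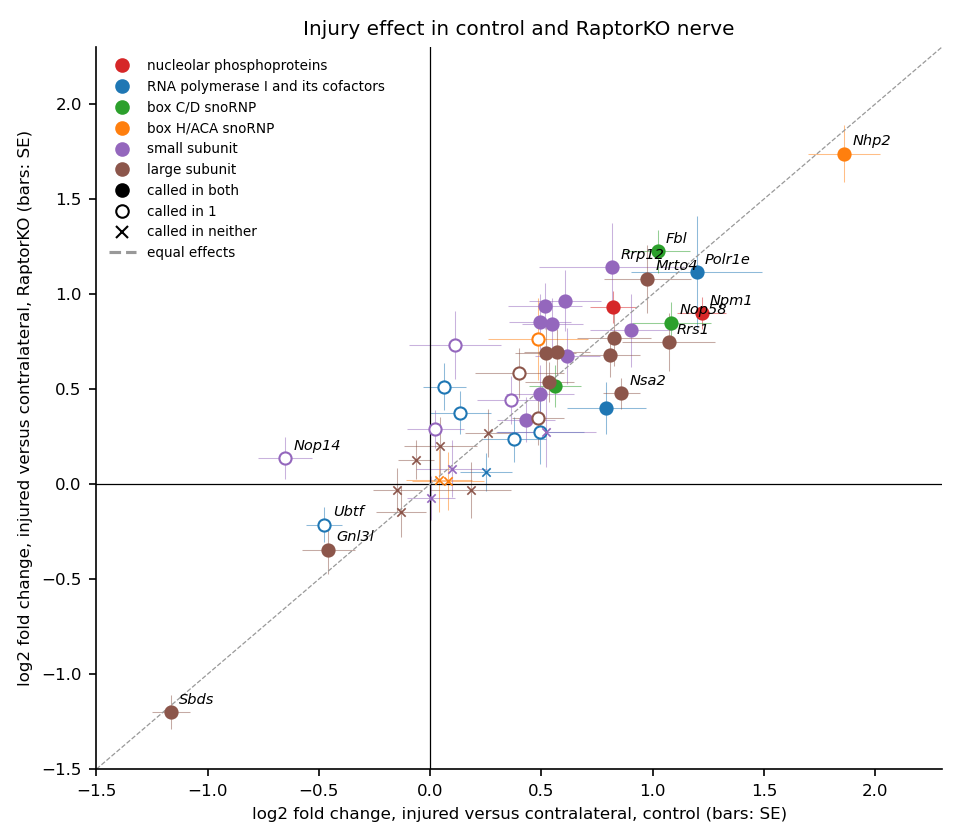
Log2 fold change of injured versus contralateral nerve in control mice (x axis) against that in RaptorKO mice (y axis) for the 51 members, with bars of 1 SE and the same symbols as for genotype. Nhp2 lay at the upper end in both (1.86 and 1.74) and Sbds at the lower end (-1.17 and -1.1995).

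The interaction of genotype and injury compares the genotype effect after crush with that before it. Of the 51 members, 1 was more positive, against 1.07% of all 12851 tested genes, and 0 were more negative, against 1.41%. Nop14 was the member called, at 0.77 (SE 0.17, edgeR adjusted p = 0.0258). At an unadjusted p under 0.05, 3 members were more positive and 2, Nsa2 and Npm1, were more negative, where 869 and 957 of the 12851 tested genes were, which is no larger a share among the members than among all genes. DESeq2 called 1 member in each direction. Nsa2 had an interaction of -0.40 (SE 0.11, edgeR adjusted p = 0.0607) and Npm1 one of -0.34 (SE 0.13, edgeR adjusted p = 0.218). The call of Nop14 was lost without RaptorKO injured 2, control contralateral 2, control contralateral 3, control injured 2 or control injured 3, with edgeR adjusted p up to 0.072. With both control libraries numbered 3 left out it was 0.62 (edgeR adjusted p = 0.14).

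The promoter windows of the members were searched for sequence motifs. RefSeq's table for GRCm38.p6 gave a window, from 250 bases before to 50 bases after the annotated start, for 40 of the 51 members. The E-box CACGTG, the sequence bound by MYC and related factors, which reads the same on both strands, was present in 8 of the 40 windows, against 8.09% of 27025 genes and 6 of 58 windows (10.3%) of cytosolic ribosomal protein genes. The 8 genes were Imp4, Nop2, Ltv1, Utp20, Pes1, Tsr1, Rrn3 and Wdr43. Ribosomal protein mRNAs are known to begin with a run of pyrimidines, and a run of at least 5 at the annotated start was found for 17 of 58 ribosomal protein genes (29.3%), for 0 of 40 members and for 5.28% of all genes. The search found the run in only 29.3% of ribosomal protein genes, so the 0 does not show that members' mRNAs lack it. The 100 bases before the start are printed for Ncl and Nsa2, which were higher in both genotype comparisons, for Nop14, the gene of the interaction call, and for Nop2 and Rrn3, whose E-box lies in this stretch. The sequences run 5′ to 3′ along the gene's strand, with the E-box in capitals. The stretches are chr1:86359456-86359555 on the minus strand for Ncl, chr13:97137927-97138026 on the minus strand for Nsa2, chr5:34660149-34660248 on the minus strand for Nop14, chr6:125131783-125131882 on the plus strand for Nop2 and chr16:13780599-13780698 on the plus strand for Rrn3.
Ncl: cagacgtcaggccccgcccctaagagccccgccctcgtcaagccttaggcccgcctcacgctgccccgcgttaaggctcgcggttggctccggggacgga
Nsa2: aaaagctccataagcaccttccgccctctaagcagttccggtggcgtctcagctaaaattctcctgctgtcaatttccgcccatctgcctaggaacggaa
Nop14: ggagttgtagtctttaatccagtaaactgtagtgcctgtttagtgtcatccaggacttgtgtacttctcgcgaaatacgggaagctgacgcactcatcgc
Nop2: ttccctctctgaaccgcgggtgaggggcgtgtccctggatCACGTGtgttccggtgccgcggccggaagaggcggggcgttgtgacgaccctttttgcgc
Rrn3: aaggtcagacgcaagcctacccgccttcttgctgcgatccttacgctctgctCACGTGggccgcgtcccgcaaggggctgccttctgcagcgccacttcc
In Nop2 the first base of the E-box lay 60 bases before the start, and in Rrn3 there were E-boxes at 48 and at 215 bases before it. Ncl, Nsa2 and Nop14 held none in the whole window, and among the members called higher in contralateral RaptorKO nerves that had a window, Tsr1 held one, 24 bases after the start. No window was at hand for Npm1, Fbl, Rrs1, Tcof1, Bop1, Rrp12, Dcaf13, Gnl2, Gnl3l, Sbds or Eif6.

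Both nucleolar phosphoproteins were higher in RaptorKO on either side and higher after injury in either genotype. Of all tested genes, 4.49% were higher in RaptorKO contralateral and 4.09% in RaptorKO injured nerves. After injury, 32.4% were higher in controls and 30.5% in RaptorKO. Npm1 (ENSMUSG00000057113) encodes nucleophosmin, an abundant nucleolar chaperone that takes part in late steps of ribosome assembly and export. Npm1 was measured at 152, 151 and 154 CPM in the control contralateral libraries, 329, 339.8, 328 and 329 CPM in the RaptorKO contralateral libraries, 349, 335 and 413 CPM in the control injured libraries and 640.1, 593 and 657 CPM in the RaptorKO injured libraries. Its 4 groups did not overlap except that control injured and RaptorKO contralateral shared part of their range. The RaptorKO effect was 1.14 (SE 0.066, edgeR adjusted p = 5.35e-05), or 2.21-fold, in contralateral nerves and 0.80 (SE 0.12, edgeR adjusted p = 0.00311), or 1.74-fold, in injured nerves. The injury effect was 1.22 (SE 0.11, edgeR adjusted p = 1.33e-06) in controls and 0.90 in RaptorKO.

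Ncl (ENSMUSG00000026234) encodes nucleolin, which binds nascent rRNA and rDNA chromatin. Ncl was measured at 268, 281 and 297 CPM in the control contralateral libraries, 419.5, 425, 415 and 422 CPM in the RaptorKO contralateral libraries, 505, 489 and 548 CPM in the control injured libraries and 829.9, 771 and 849 CPM in the RaptorKO injured libraries. Each group lay wholly above the one named before it. The RaptorKO effect on Ncl was 0.60 (SE 0.070, edgeR adjusted p = 0.0005) in contralateral and 0.69 (SE 0.11, edgeR adjusted p = 0.00412) in injured nerves, or 1.52-fold and 1.61-fold. Crush raised it by 0.82 in controls and 0.93 in RaptorKO on the log2 scale. Exons of Ncl hold snoRNA genes on the same strand, whose reads may be counted with it.

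Of RNA polymerase I and its cofactors, 2 of 7 tested genes, Polr1c and Polr1a, were higher in RaptorKO contralateral nerves, against 4.49% of all tested genes. In injured nerves 0 of 8 passed, where 4.09% of all tested genes were higher. There, 2 of the 8 had an unadjusted p under 0.05 and DESeq2 and the exact test each called 0. Polr1c was measured at 9.59, 10.05 and 8.77 CPM in the control contralateral libraries, 13.3, 16.3, 14.4 and 14.9 CPM in the RaptorKO contralateral libraries, 15.2, 17.8 and 17.8 CPM in the control injured libraries and 20.1, 20.6 and 18.7 CPM in the RaptorKO injured libraries. Polr1c encodes a subunit that RNA polymerases I and III share. The RaptorKO and control contralateral libraries of Polr1c did not overlap, and the log2 fold change was 0.66 (SE 0.15, edgeR adjusted p = 0.0195). This call was lost without RaptorKO contralateral 2 or any 1 of the 3 control libraries, with an edgeR adjusted p of at most 0.075. Polr1a was measured at 36.7, 36.7 and 34.7 CPM in the control contralateral libraries, 50.6, 54.6, 51.96 and 52.1 CPM in the RaptorKO contralateral libraries, 44.2, 48.96 and 39.8 CPM in the control injured libraries and 60.2, 49.8 and 57.1 CPM in the RaptorKO injured libraries. Polr1a encodes the largest catalytic subunit of RNA polymerase I. Its genotypes did not overlap on either side of injury, with 0.56 (SE 0.088, edgeR adjusted p = 0.00322) in contralateral nerves and 0.35 (SE 0.12, edgeR adjusted p = 0.112) in injured ones, where it missed the threshold.

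After injury, 4 of the 8 genes of this role were higher in controls (Polr1b, Polr1c, Polr1e and Tcof1) and 4 in RaptorKO (Polr1c, Polr1e, Rrn3 and Nolc1). The shares over all tested genes were 32.4% and 30.5%. Polr1e was measured at 2.44, 3.73 and 3.41 CPM in the control contralateral libraries, 3.696, 3.13, 4.82 and 2.29 CPM in the RaptorKO contralateral libraries, 9.24, 7.47 and 6.06 CPM in the control injured libraries and 8.15, 8.13 and 6.902 CPM in the RaptorKO injured libraries. Polr1e, which encodes an associated subunit of RNA polymerase I, was higher in every injured library than in any contralateral one, by 1.197 (SE 0.30, edgeR adjusted p = 0.00365) in controls and 1.12 (SE 0.30, edgeR adjusted p = 0.0075) in RaptorKO. Since it passed the count filter only with its injured libraries, these values are a description of a gene that had to be high there. Ubtf, the upstream binding factor that keeps rDNA open for transcription, moved the other way. Ubtf was measured at 140.0, 129 and 139 CPM in the control contralateral libraries, 125, 130.3, 145 and 127 CPM in the RaptorKO contralateral libraries, 100.0, 97.3 and 105 CPM in the control injured libraries and 124, 108 and 115 CPM in the RaptorKO injured libraries. In both genotypes the injured libraries of Ubtf all lay below the contralateral ones, with a change of -0.48 (SE 0.081, edgeR adjusted p = 0.000271) in controls and of -0.21 (SE 0.092, edgeR adjusted p = 0.0686) in RaptorKO, where it missed the threshold. The difference between these injury effects was 0.24 (edgeR adjusted p = 0.37). Tcof1, which encodes treacle, a partner of Ubtf, had injury effects of 0.38 in controls and 0.24 in RaptorKO on the log2 scale, and Rrn3, the initiation factor that brings the polymerase to the promoter, had 0.14 and 0.38. Polr1b, the second largest subunit, had 0.49 and 0.28. The injury calls of Polr1b and Tcof1 in controls were lost under 4 of the settings that leave out 1 library: without control contralateral 2, control contralateral 3 or control injured 1 for both, and without control injured 3 for Polr1b and control injured 2 for Tcof1. In RaptorKO, Polr1c lost its injury call without RaptorKO contralateral 1 or 3 or RaptorKO injured 1 or 2, and also under DESeq2 and with no count filter, and Rrn3 without RaptorKO injured 1 or 3. Without 1 library, the edgeR adjusted p reached 0.131 for Polr1b, 0.136 for Tcof1, 0.0787 for Polr1c and 0.0701 for Rrn3.

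All 3 core proteins of the box C/D snoRNP examined, which guides methylation of rRNA, were higher in RaptorKO contralateral nerves and in injured nerves of both genotypes. Of all tested genes, 4.49% were higher in RaptorKO contralateral nerves, and 32.4% and 30.5% were higher after injury in controls and RaptorKO. Fbl encodes fibrillarin, the methyltransferase of the particle. Fbl was measured at 19.8, 16.5 and 18.9 CPM in the control contralateral libraries, 22.3, 27.2, 26.2 and 23.9 CPM in the RaptorKO contralateral libraries, 33.4, 39.1 and 43.1 CPM in the control injured libraries and 62.3, 58.6 and 57.1 CPM in the RaptorKO injured libraries. Each group of Fbl lay above the one named before it. The RaptorKO effect was 0.46 (SE 0.12, edgeR adjusted p = 0.0426) in contralateral and 0.64 (SE 0.13, edgeR adjusted p = 0.0122) in injured nerves, and the injury effect was 1.02 (SE 0.15, edgeR adjusted p = 6.74e-05) in controls and 1.22 (SE 0.11, edgeR adjusted p = 4.96e-06) in RaptorKO. The contralateral call of Fbl was lost with no count filter and without RaptorKO contralateral 2 or 3 or any 1 control library, with an edgeR adjusted p of up to 0.175, and the injured one without RaptorKO injured 1 or control injured 2, with up to 0.0578. Nop58 was measured at 22.8, 24.9 and 20.9 CPM in the control contralateral libraries, 29.2, 30.6, 32.97 and 28.8 CPM in the RaptorKO contralateral libraries, 45.9, 39.99 and 64.005 CPM in the control injured libraries and 55.3, 52.02 and 60.3 CPM in the RaptorKO injured libraries. Nop58 and Nop56 encode the paired scaffold proteins of the particle. The injured libraries of Nop58 exceeded the contralateral ones in controls by 1.08 (SE 0.18, edgeR adjusted p = 0.000203), and its RaptorKO effect was 0.43 (SE 0.11, edgeR adjusted p = 0.0355) in contralateral nerves and 0.18 (SE 0.17, edgeR adjusted p = 0.632) in injured nerves. For Nop56 these effects were 0.43 and 0.37 (edgeR adjusted p = 0.0224 and 0.12). The contralateral calls of Nop56 and Nop58 were lost without RaptorKO contralateral 1 or any 1 control library, and that of Nop58 also without RaptorKO contralateral 2 or 3, with no count filter and in a single fit of the 13 libraries, with an edgeR adjusted p of up to 0.102 and 0.137.

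The box H/ACA snoRNP converts uridines of rRNA to pseudouridine. Nhp2, a core protein of the particle, had the largest injury effect of all members in both genotypes. Nhp2 was measured at 8.14, 7.13 and 8.28 CPM in the control contralateral libraries, 11.7, 11.3, 14.6 and 9.78 CPM in the RaptorKO contralateral libraries, 33.9, 26.8 and 27.6 CPM in the control injured libraries and 41.5, 40.8 and 38.9 CPM in the RaptorKO injured libraries. Every injured library of Nhp2 lay well above any contralateral one. The injury effect was 1.86 (SE 0.16, edgeR adjusted p = 9.77e-07), or 3.63-fold, in controls and 1.74 (SE 0.15, edgeR adjusted p = 3.34e-06), or 3.34-fold, in RaptorKO. Gar1 was measured at 6.06, 7.37 and 7.403 CPM in the control contralateral libraries, 8.76, 13.4, 9.45 and 6.61 CPM in the RaptorKO contralateral libraries, 11.9, 9.72 and 8.501 CPM in the control injured libraries and 16.6, 17.3 and 16.01 CPM in the RaptorKO injured libraries. Gar1, another core protein, did not overlap between genotypes after injury and did before it. Its RaptorKO effect was 0.75 (SE 0.19, edgeR adjusted p = 0.0302) in injured nerves and 0.49 (SE 0.24, edgeR adjusted p = 0.25) in contralateral ones, and that of Nhp2 was 0.48 (SE 0.13, edgeR adjusted p = 0.0472) and 0.62 (SE 0.18, edgeR adjusted p = 0.0586). The injured calls of both genes were lost without any 1 of the 3 RaptorKO injured libraries and without control injured 2 or 3, with an edgeR adjusted p of up to 0.19 for Nhp2 and 0.112 for Gar1, and that of Nhp2 also in a single fit of the 13 libraries. Dkc1, which encodes dyskerin, the pseudouridine synthase itself, passed in no comparison, with log2 fold changes of 0.13 and 0.084 for genotype and 0.038 and 0.021 for injury. Nop10 passed in none either.

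Of the 16 small subunit factors, 1 was higher in RaptorKO contralateral nerves (Tsr1), 3 in RaptorKO injured nerves (Nop14, Tsr1 and Utp14a), 9 in injured nerves of controls and 12 in injured nerves of RaptorKO. Over all tested genes, the shares in these comparisons were 4.49%, 4.09%, 32.4% and 30.5%. Tsr1 was measured at 20.4, 19.1 and 23.2 CPM in the control contralateral libraries, 27.7, 35.2, 31.8 and 25.4 CPM in the RaptorKO contralateral libraries, 35.7, 29.4 and 29.5 CPM in the control injured libraries and 51.1, 51.8 and 61.9 CPM in the RaptorKO injured libraries. Tsr1 encodes a factor that occupies the maturing small subunit in the cytoplasm. The genotypes did not overlap on either side, with 0.55 (SE 0.14, edgeR adjusted p = 0.0315) in contralateral and 0.82 (SE 0.13, edgeR adjusted p = 0.00393) in injured nerves. The contralateral call was lost without RaptorKO contralateral 2 or 3 or any 1 control library, with an edgeR adjusted p of up to 0.134. Exons of Tsr1 share 1240 bases with Srr on the other strand, and the strand setting of the counting is not stated, so reads of the pair may not have been told apart.

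Nop14 encodes a factor of the small subunit processome, the large particle that forms on nascent rRNA. Nop14 was measured at 55.02, 55.5 and 66.7 CPM in the control contralateral libraries, 66.7, 62.96, 53.2 and 66.1 CPM in the RaptorKO contralateral libraries, 44.4, 36.6 and 35.3 CPM in the control injured libraries and 65.5, 73.9 and 69.4 CPM in the RaptorKO injured libraries. In controls the injured libraries all lay below the contralateral ones, and in RaptorKO the injured and contralateral ranges overlapped. The injury effect was -0.65 (SE 0.12, edgeR adjusted p = 0.000536) in controls and 0.14 (SE 0.11, edgeR adjusted p = 0.306) in RaptorKO. The RaptorKO effect was 0.099 (SE 0.11, edgeR adjusted p = 0.638) in contralateral nerves, where the genotypes overlapped, and 0.87 (SE 0.12, edgeR adjusted p = 0.00192) in injured nerves, where they did not. An antisense gene, Gm15522, shares 144 exon bases with Nop14, and a lincRNA on the other strand, 9530027J09Rik, shares 473 with Utp14a. Utp14a was measured at 22.6, 18.5 and 25.6 CPM in the control contralateral libraries, 27.03, 27.8, 23.9 and 24.8 CPM in the RaptorKO contralateral libraries, 28.9, 30.4 and 38.8 CPM in the control injured libraries and 43.998, 53.6 and 53.7 CPM in the RaptorKO injured libraries. Utp14a, a processome factor on the X chromosome, was higher in RaptorKO injured nerves by 0.64 (SE 0.15, edgeR adjusted p = 0.0254). Without control injured 3 this call held (edgeR adjusted p = 0.0167), and it was lost without RaptorKO injured 3, control injured 1 or control injured 2, with an edgeR adjusted p of up to 0.111. Its rise after injury in controls was lost without control injured 3 or control contralateral 2, with up to 0.081.

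Among small subunit factors called after injury in controls, the largest rise was that of Bysl (0.90) and the smallest that of Utp20 (0.43), and in RaptorKO they were Rrp12 (1.14) and Wdr43 (0.29). Rrp12 was measured at 9.05, 4.13 and 3.701 CPM in the control contralateral libraries, 7.07, 6.18, 6.61 and 3.81 CPM in the RaptorKO contralateral libraries, 11.3, 11.2 and 8.31 CPM in the control injured libraries and 12.99, 15.2 and 11.96 CPM in the RaptorKO injured libraries. Rrp12, needed for export of the small subunit, overlapped between injured and contralateral nerves of controls, where control contralateral 1 was high, at 0.82 (SE 0.33, edgeR adjusted p = 0.0454). In RaptorKO it did not overlap and rose by 1.14 (SE 0.23, edgeR adjusted p = 0.00146). The control call was lost without control contralateral 2, control contralateral 3, control injured 1 or control injured 2, with an edgeR adjusted p of up to 0.152. Heatr1, Dcaf13, Emg1, Bysl, Ltv1, Tsr1, Utp14a, Utp20 and Rrp12 were higher after injury in both genotypes. Heatr1, a processome scaffold, rose by 0.61 in controls and 0.97 in RaptorKO on the log2 scale, and Emg1, an rRNA methyltransferase, rose by 0.49 and 0.47. After injury, the calls of Emg1 and Utp20 were each lost without a single library, in controls without control contralateral 2 for Emg1 (edgeR adjusted p = 0.0665) and control contralateral 1 for Utp20 (0.0503). In RaptorKO, Emg1 was lost without RaptorKO contralateral 1 or RaptorKO injured 1 or 2 (up to 0.107), Utp20 without any 1 RaptorKO contralateral library or RaptorKO injured 3 (up to 0.113) and under DESeq2 and no count filter, and Wdr43 without RaptorKO contralateral 3 or 4 or RaptorKO injured 2 or 3 (up to 0.0782), by edgeR's adjusted p. Exons of Bysl share 361 bases with Ccnd3 on the other strand, and those of Emg1 share 334 with Lpcat3. Imp3 and Imp4, partners of the U3 snoRNA, and Nob1 passed in no comparison. Nob1, the nuclease that makes the final cut at the end of the small subunit rRNA, had a RaptorKO effect of 0.56 (SE 0.18, edgeR adjusted p = 0.0872) in contralateral nerves.

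Of the 18 large subunit factors, 2 were higher in RaptorKO contralateral nerves (Nsa2 and Ebna1bp2), 1 in RaptorKO injured nerves (Nsa2), 9 after injury in each genotype, and 2, Sbds and Gnl3l, were lower after injury in each genotype. Over all tested genes, 4.49% and 4.09% were higher in RaptorKO. After injury, 32.4% were higher and 32.9% lower in controls, and 30.5% and 28.5% in RaptorKO. Nsa2 was measured at 78.2, 75.02 and 75.1 CPM in the control contralateral libraries, 139, 147, 132 and 136 CPM in the RaptorKO contralateral libraries, 139, 138 and 149.9 CPM in the control injured libraries and 194, 189.7 and 206 CPM in the RaptorKO injured libraries. Nsa2 encodes a factor of the nuclear large subunit precursor. RaptorKO contralateral and control injured libraries of Nsa2 overlapped, and RaptorKO injured libraries lay above both. The RaptorKO effect was 0.89 (SE 0.073, edgeR adjusted p = 8.07e-05), or 1.85-fold, in contralateral nerves and 0.48 (SE 0.10, edgeR adjusted p = 0.0139), or 1.396-fold, in injured ones. The injury effect was 0.86 (SE 0.082, edgeR adjusted p = 2.1e-06) in controls and 0.48 (SE 0.083, edgeR adjusted p = 0.000539) in RaptorKO. The injured genotype call was lost without RaptorKO injured 1, control injured 1 or control injured 2, with an edgeR adjusted p of up to 0.0781. Nsa2 shares 1590 exon bases with Fam169a on the other strand, also overlaps Gfm2 and has a named pseudogene, Nsa2-ps2, so its level is uncertain.

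Ebna1bp2, the homologue of a yeast rRNA processing factor, was higher in RaptorKO contralateral nerves by 0.44 (SE 0.11, edgeR adjusted p = 0.0315), with 60.8, 64.3, 61.9 and 47.5 CPM in its libraries against 43.3, 44.7 and 44.2 CPM in controls, a call that was lost without any 1 of RaptorKO contralateral 1, 2 and 3 and without any 1 control library, with an edgeR adjusted p of up to 0.112. Rrs1 was measured at 9.14, 7.05 and 11.8 CPM in the control contralateral libraries, 11.3, 14.96, 13.4 and 10.9 CPM in the RaptorKO contralateral libraries, 17.6, 21.02 and 21.9 CPM in the control injured libraries and 22.4, 20.998 and 21.6 CPM in the RaptorKO injured libraries. Rrs1, which brings the 5S particle into the large subunit precursor, was higher in every injured library than in any contralateral library, by 1.07 (SE 0.21, edgeR adjusted p = 0.00075) in controls and 0.75 (SE 0.15, edgeR adjusted p = 0.00165) in RaptorKO. Mrto4 was measured at 13.7, 9.72 and 11.6 CPM in the control contralateral libraries, 16.6, 15.03, 12.3 and 9.65 CPM in the RaptorKO contralateral libraries, 19.2, 23.4 and 28.2 CPM in the control injured libraries and 28.7, 29.2 and 28.9 CPM in the RaptorKO injured libraries. Mrto4, which holds the place of the ribosomal stalk on the precursor, likewise did not overlap between injured and contralateral nerves and rose by 1.08 (SE 0.18, edgeR adjusted p = 0.00038) in RaptorKO and by 0.97 (SE 0.20, edgeR adjusted p = 0.000924) in controls. Mrto4 has named pseudogenes, Mrto4-ps1 and Mrto4-ps2. The smallest rise among the large subunit calls was that of Nifk (0.48) in controls and of Nsa2 (0.48) in RaptorKO.

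Sbds, whose protein releases Eif6 from the large subunit in its last step of maturation, was the member that fell most after crush. Sbds was measured at 197, 195 and 191 CPM in the control contralateral libraries, 179, 182, 163 and 172 CPM in the RaptorKO contralateral libraries, 96.2, 82.1 and 90.1 CPM in the control injured libraries and 81.5, 79.9 and 70.03 CPM in the RaptorKO injured libraries. Every injured library of Sbds lay below every contralateral library. The change was -1.17 (SE 0.085, edgeR adjusted p = 2.02e-07) in controls and -1.1995 (SE 0.090, edgeR adjusted p = 1.51e-06) in RaptorKO, or 0.446 and 0.435 times the contralateral level. Eif6, the factor that Sbds releases, rose instead, by 0.57 (SE 0.15, edgeR adjusted p = 0.00516) in controls and 0.69 (SE 0.12, edgeR adjusted p = 0.000547) in RaptorKO. Gnl3l was measured at 45.4, 46.7 and 40.5 CPM in the control contralateral libraries, 48.5, 38.6, 42.4 and 44.1 CPM in the RaptorKO contralateral libraries, 36.6, 32.1 and 31.1 CPM in the control injured libraries and 34.5, 30.3 and 39.6 CPM in the RaptorKO injured libraries. Gnl3l, a nucleolar GTPase on the X chromosome, was lower in control injured than in control contralateral libraries without overlap, at -0.46 (SE 0.12, edgeR adjusted p = 0.00518), and it overlapped in RaptorKO, at -0.34 (SE 0.13, edgeR adjusted p = 0.0432). The RaptorKO call was lost under 8 alternatives, among them library totals, no count filter, the edgeR exact test and leaving out RaptorKO contralateral 1, 3 or 4 or RaptorKO injured 1 or 2, with an edgeR adjusted p of up to 0.156 without 1 library. With library totals the control call was lost too (edgeR adjusted p = 0.0744), and it held under the other alternatives. Gnl3, the related GTPase nucleostemin, rose by 0.81 in controls and 0.68 in RaptorKO. Bop1 and Pes1, which form a complex with Wdr12, rose by 0.52 and 0.53 in controls and by 0.69 and 0.54 in RaptorKO. Wdr12 itself, with 0.18 and -0.032, passed in no comparison, and neither did Rrp1, Nop16, Ftsj3 or Gnl2.

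**Figure D4:**
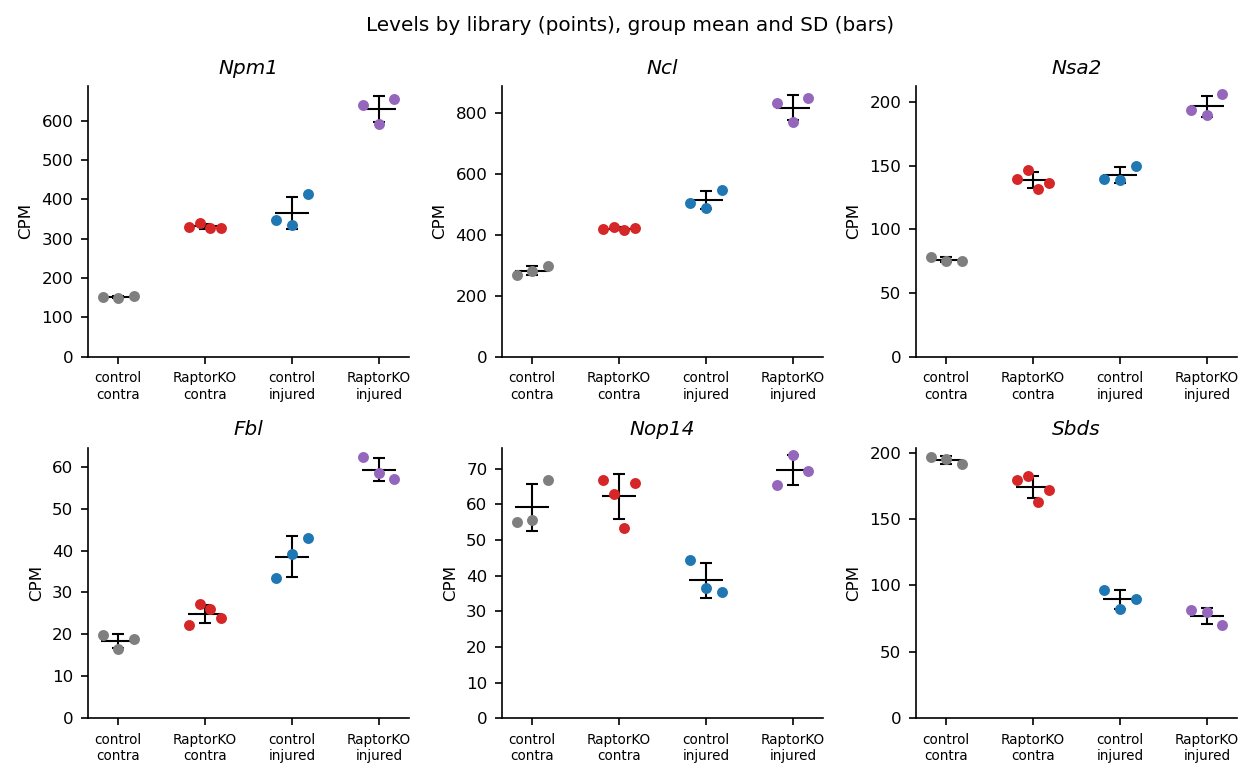
CPM of Npm1, Ncl, Nsa2, Fbl, Nop14 and Sbds in each of the 13 libraries (points) with the mean and SD of each group (black bars), on axes that start at 0. Npm1 averaged 152 ± 1.84, 331 ± 5.67, 366 ± 41.4 and 629.8 ± 33.1 CPM (SD) in the 4 groups, and Nop14 was low in the 3 control injured libraries.

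Genes of the same pathway that are not members were set beside them. Of all tested genes, 4.49% were higher and 5.68% lower in RaptorKO contralateral nerves, and 4.09% and 4.44% in RaptorKO injured nerves. After injury, 32.4% were higher and 32.9% lower in controls, and 30.5% and 28.5% in RaptorKO. The counts of every list below stand beside these shares. Of 86 tested further assembly factors, 7 were higher and 1 lower in RaptorKO contralateral nerves, led by Ddx51 (0.65) and Noc2l (0.57), with a median of 0.084. In injured nerves 9 of 87 were higher and 0 lower, led by Znhit6 (0.89) and Sdad1 (0.79), with a median of 0.15, where 25 were higher and 0 lower at an unadjusted p under 0.05, DESeq2 called 11 higher and the exact test 12. After injury 25 were higher and 9 lower in controls (median 0.22), where Znhit6 (-2.02) and Mdn1 (-1.49) fell, and 39 were higher and 7 lower in RaptorKO (median 0.33), where Las1l (-1.43) fell and Nop9 (1.36) rose. Of the interaction, 0 were called, 9 were more positive at an unadjusted p under 0.05, and DESeq2 called 1.

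Cytosolic ribosomal protein genes, whose products the assembly factors place on rRNA, were mostly higher. In RaptorKO contralateral nerves 75 of 79 were higher, with a median of 0.85, among them Rpl10 (1.36), and in injured nerves 56 of 79, with a median of 0.55, led by Rpl32 (0.80) and Rpl4 (0.79). After injury 73 were higher and 1 lower in controls (median 0.79), led by Rps2 (1.53) and Rpsa (1.49), and 59 were higher in RaptorKO (median 0.49), led by Rpl12 (1.304) and Rps2 (1.22). The interaction had a median of -0.30, and 0 of 79 passed, with 27 more negative at an unadjusted p under 0.05 and 8 by DESeq2. Mitochondrial ribosomal protein genes had 1 of 78 higher in RaptorKO contralateral nerves, Mrpl30 (0.69), with a median of 0.064. In injured nerves 0 of 78 passed (median -0.025), with 6 higher and 2 lower at an unadjusted p under 0.05, and DESeq2 called 0 and the exact test 1 lower. After injury 31 were higher and 4 lower in controls (median 0.34), led by Mrpl22 (0.88) and Mrpl34 (0.88), and 28 were higher and 2 lower in RaptorKO (median 0.28), led by Mrps18b (0.9999) and Mrpl54 (0.83).

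Host genes of snoRNAs carry the guide RNAs of the snoRNPs in their introns. In RaptorKO contralateral nerves 4 of 10 host genes were higher (median 0.47), led by Zfas1 (0.92) and Snhg17 (0.76), and in injured nerves 3 of 11 (median 0.51), led by Snhg17 (0.68) and Zfas1 (0.66). After injury 5 were higher and 2 lower in controls (median 0.35), where Snhg1 (1.43) and Snhg18 (-1.17) changed most, and 5 were higher and 1 lower in RaptorKO (median 0.40), led by Snhg6 (1.36) and Snhg1 (1.299). Of 9 further RNA polymerase I factors, 0 passed in either genotype comparison (medians 0.094 and 0.022), with 1 and 0 at an unadjusted p under 0.05 and 0 by DESeq2 and the exact test, and 2, Taf1d (0.94) and Polr1d (0.79) in controls, rose after injury in each genotype (medians 0.21 and 0.11). Of 13 RNA exosome genes, 0 passed in either genotype comparison (medians 0.13 and 0.061), with 2 in each at an unadjusted p under 0.05 and 0 by DESeq2 and the exact test. After injury 3 exosome genes were higher in controls (median 0.30), led by Exosc8 (0.97) and Exosc4 (0.62), and 5 were higher and 1 lower in RaptorKO (median 0.40), led by Exosc2 (0.83) and Exosc5 (0.77). In the MYC network, Mga (0.30) was higher in RaptorKO contralateral nerves (1 of 10, median 0.11) and Myc (0.83) in RaptorKO injured nerves (1 of 9, median 0.056). After injury 4 were higher and 5 lower of 10 in controls (median -0.21), where Mycl (-3.03) fell most, and 3 were higher and 4 lower in RaptorKO (median -0.17), where Myc (2.79) rose. Mxd3 was higher after injury in both genotypes and was called more negative in the interaction, and no fold is given because its control contralateral libraries were at or near 0.

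**Figure D5:**
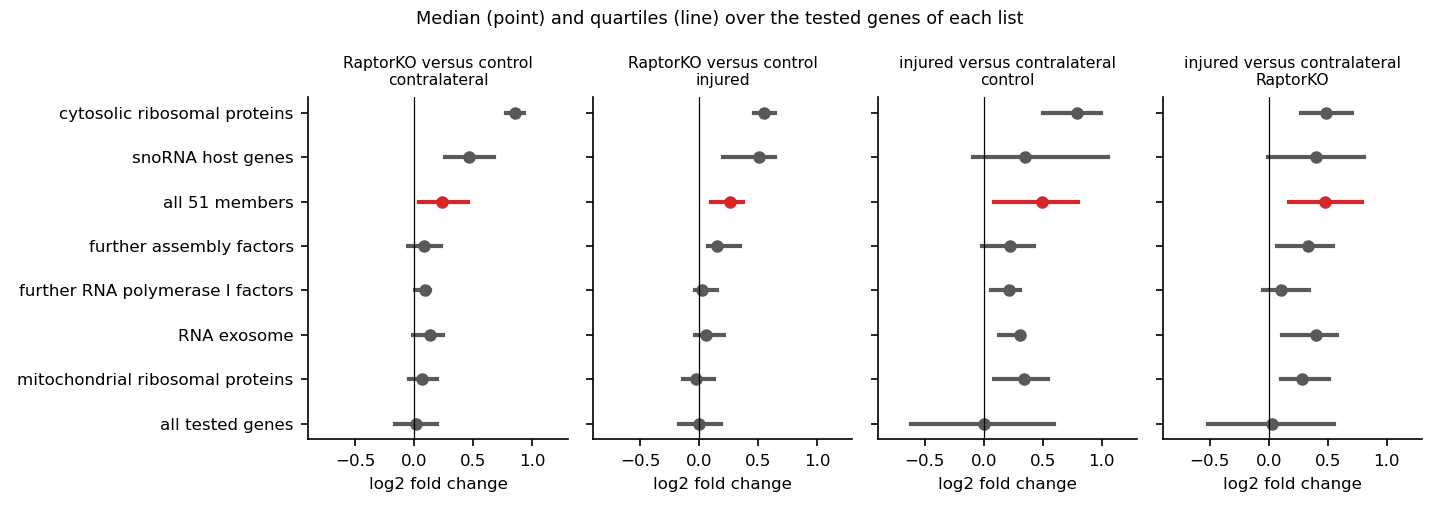
Median (points) and quartiles (lines) of the log2 fold change over the tested genes of 8 lists in the 4 comparisons between groups, with the members in red. The members' medians of 0.23, 0.26, 0.49 and 0.48 lay below those of cytosolic ribosomal proteins and above those of all tested genes.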

How the data were processed

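RNA from 13 samples of sciatic nerve was sequenced as single-end reads. The authors trimmed the reads (Trimmomatic), aligned them to the mouse genome (GRCm38) and estimated counts per gene with RSEM 1.2.22, and the values they deposited are these estimated counts, not normalized. The kit is named differently in the labels and in the study's methods, and the strand setting of the counting is not given in the sources used here. The table held 40787 genes in 13 columns, each matched to 1 sample by its name, and 40634 genes were matched to GENCODE M21 (GRCm38). In each library, 24.93 to 27.95% of the values above 0 were not whole, and all were rounded.

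Genes with at least 50 counts in at least 2 libraries of a fit were tested with edgeR 4.0.16 (quasi-likelihood test, TMM, R 4.3.3), in 5 comparisons: RaptorKO versus control in contralateral and in injured nerves, injured versus contralateral in each genotype, and their interaction. P-values were adjusted over all tested genes (Benjamini-Hochberg), and a gene was called at an adjusted p under 0.05 with a fold change above 1.2. A gene not tested for low counts may still differ. The scripts were tested on simulated data. Alternatives were DESeq2 1.42.0, edgeR's exact test, DESeq2-type size factors, library totals, no count filter, a single fit of the 13 libraries, a replicate block, leaving out each library, and, chosen after seeing the data, median transcript lengths and leaving out both control libraries numbered 3. Genes are named by rule: in each comparison the called members with the largest changes, up to 5 in each direction, Npm1, Ncl and Nsa2 for genotype, interaction calls, in each role the called members with the largest and smallest change, in each other list up to 2 called genes, and Rptor. Other members named, such as Ebna1bp2, Eif6, Dkc1 and Nob1, were chosen after their values were seen. An item that the rule names in 1 of the other lists is not reported here. The members and lists were chosen with earlier results of these data known. Promoter windows are from RefSeq (GRCm38.p6). Figures were drawn with matplotlib 3.10.9.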

Additional observations from a re-analysis of the deposited data

Results flagged for a closer look

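In the 4 RaptorKO contralateral libraries, 51 values were examined for a library that stands apart, where the gap to the nearest library had to exceed 0.829 of the group's range, and 3 did. Chance gives about 1 in 20. Npm1 was at 339.8 CPM in RaptorKO contralateral 2, against 328 to 329 CPM in the other 3 libraries, and all 4 values lay far above the 151 to 154 CPM of control contralateral libraries. Rrn3 was at 29.5 CPM in RaptorKO contralateral 4, against 32.5 to 32.7 CPM in the others. Ftsj3 was at 39.5 CPM in RaptorKO contralateral 4, against 52.9 to 55.3 CPM in the others.

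The effect of RaptorKO on Nop14 differed between injured and contralateral nerves by 0.77 on the log2 scale (SE 0.17, edgeR adjusted p = 0.0258 over all tested genes), a test of the difference itself. The 3 RaptorKO injured libraries all lay above the 3 control injured ones, and the contralateral libraries of both genotypes overlapped. The interaction call was lost under 6 of 19 alternatives. One of these left out both control libraries numbered 3, where the difference was 0.62 (edgeR adjusted p = 0.14).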

How the results depend on the processing

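Of 86 calls of single members over the 5 comparisons, 61 passed under every alternative run, 25 were lost under at least 1, and 0 changed direction. Counts of members higher in RaptorKO ranged over the settings without 1 library from 4 to 12 in contralateral nerves, where the fit of all libraries gave 10, and from 4 to 7 in injured nerves, where it gave 9. Those of members lower after injury in RaptorKO ranged from 1 to 2, and of members more positive in the interaction from 0 to 1. Members lower after injury in RaptorKO numbered 1, in place of 2, under edgeR's exact test, library totals and no count filter. Members more negative in the interaction numbered 1, in place of 0, under DESeq2 and library totals, and with both control libraries numbered 3 left out 0 were more positive. The cause was not tested.

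Deviations of same-numbered injured and contralateral libraries of a genotype had r from -0.024 to 0.305 over 12851 genes. Those of different number had r from -0.298 to 0.137. Same-numbered libraries of the 2 genotypes, which are different mice, had r from -0.049 to 0.301. Not every library correlated best with its own number, but both control libraries numbered 3 had high Xist and low Y-linked counts. These values do not settle whether a number marks a mouse. The number was not taken as a pairing, and if it marks a mouse, the injury tests left that pairing out. With the replicate block, 12 members were higher in RaptorKO contralateral and 7 in RaptorKO injured nerves, 29 were higher and 4 lower after injury in controls, 28 higher and 2 lower in RaptorKO, and 1 was more positive in the interaction. In the genotype comparisons this block joined different mice that share only a number, and RaptorKO contralateral 4 had no partner. Its genotype results are therefore no check of a pairing. The block ended the injury calls of Emg1, Polr1c, Utp20 and Wdr43 in RaptorKO (edgeR adjusted p = 0.0616, 0.0511, 0.0739 and 0.0706), the contralateral genotype call of Fbl (0.0581) and the injured genotype calls of Gar1 and Nhp2 (0.054 and 0.073). Over all genes, the block gave 880 higher in RaptorKO contralateral nerves in place of 533, DESeq2 gave 353 more negative and 245 more positive in the interaction in place of 181 and 137, and no count filter gave 856 higher in RaptorKO injured nerves in place of 493. Without 1 library, genes higher in RaptorKO ranged from 247 to 598 in contralateral and 176 to 484 in injured nerves, genes lower from 278 to 820 and 271 to 515, and interaction calls from 78 to 163 more negative and 54 to 129 more positive. With both control libraries numbered 3 left out, 62 genes were more negative and 51 more positive. Low counts limit Polr1e, Rrp12 and Gar1, whose SEs were among the largest of the members.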
